A study of Homo sapiens with 2 samples.

Results

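The genes described here encode the main drug-metabolizing enzyme families of the liver, namely the cytochromes P450 (CYP), the UDP-glucuronosyltransferases (UGT), the cytosolic sulfotransferases (SULT) and the glutathione S-transferases (GST). Members were chosen by name. They are the genes in both deposited libraries whose current NCBI symbol is CYP followed by a digit, or begins with UGT1A, UGT2A, UGT2B, SULT1, SULT2, GSTA, GSTM, GSTP1, GSTT, GSTO, GSTK or GSTZ. CYP1A1, CYP1B1 and CYP51A1 and the 16 pseudogenes that fit these names were left out. This gave 105 of the 27685 genes in the files, of which 56 were P450 genes, 19 UGT genes, 11 SULT genes and 19 GST genes, and 4 of the 105 were noncoding antisense genes.

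The JIB-04 library came from PLC/PRF/5 cells, an established line from a human hepatocellular carcinoma, kept for 24 h in 6 µM JIB-04, a small molecule that inhibits the Jumonji family of histone lysine demethylases. The DMSO library came from the same line in the solvent, also for 24 h. One of the sample labels calls the control untreated, whereas the library title and the treatment protocol name DMSO. There was 1 library per condition, so no difference below has a replicate check, no test across samples could be made and no p-value is given. Both libraries represent 1 cell line, and in bulk RNA fewer cells of a type and less RNA per cell cannot be told apart.

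In the liver, P450 enzymes are heme proteins of the endoplasmic reticulum or of mitochondria that insert oxygen into drugs, sterols, fatty acids, vitamin D and retinoids. UGT, SULT and GST enzymes then attach glucuronic acid, sulfate or glutathione, which makes the products more soluble and ready for export. Hepatocytes are the richest source of these enzymes, and cultured hepatoma lines are known to keep only some of them.

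Levels are given as TPM, the share of a transcript among all transcripts, summed over the annotated transcripts of a gene. The value is corrected for transcript length and sums to 1000000 in each library. Genes that reached 1 TPM in the JIB-04 library, the DMSO library or both were described, and there were 14450 of them. The log2 ratio is that of TPM + 1 in the JIB-04 library over TPM + 1 in the DMSO library, a scale that understates differences of weakly expressed genes. A gene was called higher at a ratio of at least 2 and lower at a ratio of at most 0.5. The files hold no read counts, and the JIB-04 and DMSO libraries had an estimated 23721989 and 28187793 aligned fragments. Intervals are 95% exact conditional binomial (Clopper-Pearson) intervals computed from the estimated fragments, and they leave out any error other than that of counting. The median log2 ratio of all described genes was -0.15, and a member near this value lay at the centre of all genes.

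Hepatocyte markers were present in both libraries. Of 14 such markers, 13 were described, 0 were higher and 1 was lower, beside 5.99% and 6.88% of all described genes. Below 0 lay 9 of the 13, and the summed levels were 4607 TPM with JIB-04 and 5052 TPM with DMSO. The lower one was APOB, the protein of secreted lipoproteins, with 32.9 TPM with JIB-04 and 103 TPM with DMSO, a log2 ratio of -1.62. Most of the sum came from FGA, FGB, CPS1 and TF. ASGR1, the hepatocyte asialoglycoprotein receptor, had a log2 ratio of -0.89 and CPS1, of the urea cycle, one of -0.72. TTR, FGB and TF lay the other way at 0.72, 0.32 and 0.15. The transcription factor HNF4A had 72.3 TPM with JIB-04 and 71.9 TPM with DMSO. APOA1, APOA2 and APOC3 had 0.990, 0.860 and 1.52 TPM with JIB-04 and 1.34, 1.08 and 1.69 TPM with DMSO. AFP, the fetal liver and hepatoma protein, had 151 TPM with JIB-04 and 131 TPM with DMSO. GPC3, the other marker of that kind, was listed at 0 with JIB-04 and had 0.105 TPM with DMSO. Albumin (ALB) was low, at 4.53 TPM with JIB-04 and 9.74 TPM with DMSO. Of the 5 leukocyte markers, which summed to 43.3 TPM with JIB-04 and 63.3 TPM with DMSO, PTPRC, CD163 and MARCO were listed at 0 in both libraries. LYZ had 41.9 TPM with JIB-04 and 57.3 TPM with DMSO, and CD14, called lower, had 1.37 TPM with JIB-04 and 6.05 TPM with DMSO. Of the 5 endothelial markers LYVE1 alone was described, at 1.13 TPM with JIB-04 and 1.03 TPM with DMSO. The 6 fibroblast markers summed to 14.2 TPM with JIB-04 and 22.1 TPM with DMSO.

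The enzyme repertoire of PLC/PRF/5 was led by GSTP1. Of the 105 members, 44 were described and 61 were not, beside 14450 and 13235 of all 27685 genes. Listed at 0 in both libraries were 35 members, beside 8507 of all genes. The members together took 5274 TPM with JIB-04 and 6342 TPM with DMSO, or 0.527% of all TPM with JIB-04 and 0.634% with DMSO. GSTP1 alone made up 78.6% of that sum with JIB-04 and 75.3% with DMSO. The members of at least 100 TPM numbered 4 with JIB-04 (GSTP1, SULT1C4, GSTO1 and GSTK1) and 6 with DMSO, where CYP24A1 and CYP2S1 were also above that level.

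Many of the classic enzymes of the adult liver were at or near 0. CYP2A6, CYP2C8, CYP7A1, CYP8B1, GSTA1, GSTA2, GSTT1 and SULT2A1 were listed at 0 in both libraries. CYP3A4, the leading drug-metabolizing P450 of adult liver, had 0.516 TPM with JIB-04 and 0.261 TPM with DMSO. CYP2D6 had 0.477 TPM with JIB-04 and was listed at 0 with DMSO, and CYP1A2 had 0.0651 TPM with JIB-04 and was listed at 0 with DMSO. Of the 9 UGT1A genes, which share their last exons, UGT1A1 alone was described. None of the 4 GSTT genes, which include the noncoding GSTT1-AS1, was described. GSTT2, left out as a pseudogene, overlaps GSTT2B and had 0.455 TPM with JIB-04 and was listed at 0 with DMSO.

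**Figure D1:**
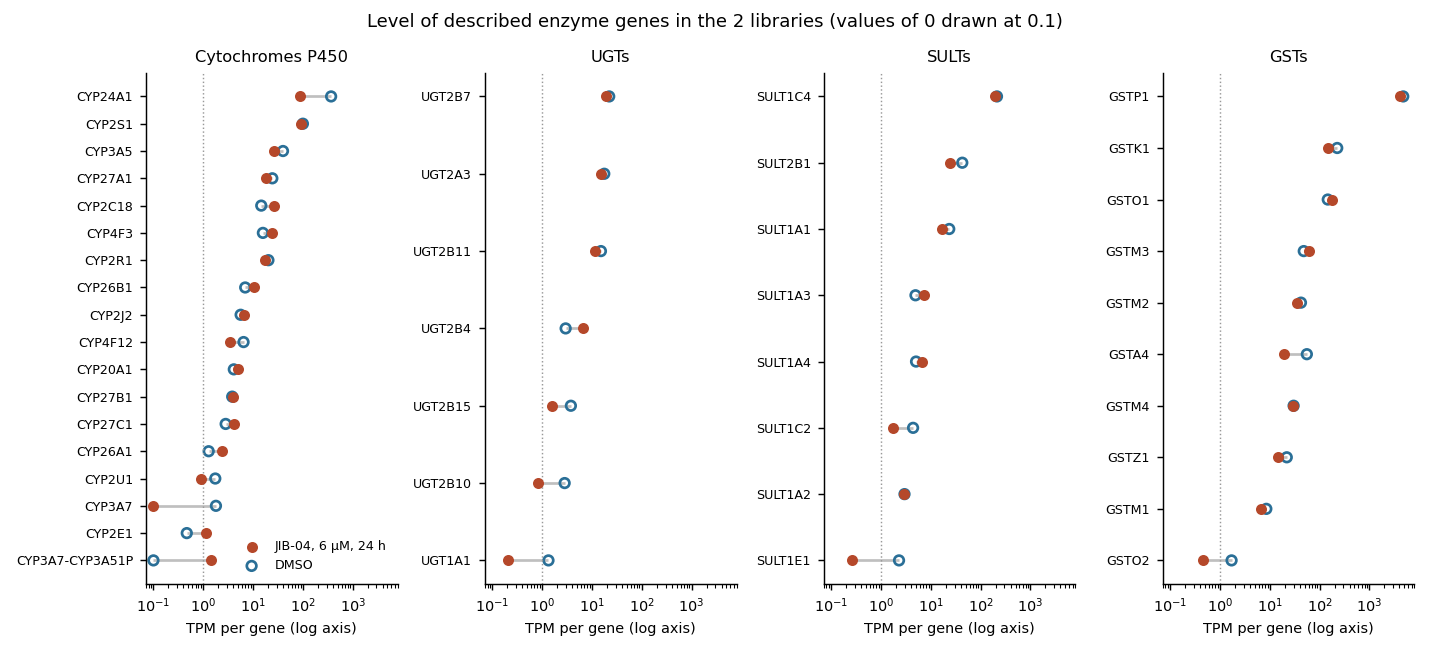
TPM per gene (log axis) of 43 of the 44 described members in the JIB-04 library (filled) and the DMSO library (open), by family and ordered by mean level, with values of 0 drawn at 0.1 and the dotted line at 1 TPM. GSTP1 stands apart at 4143 TPM with JIB-04 and 4773 TPM with DMSO, and CYP24A1, at 88.8 TPM with JIB-04 and 370 TPM with DMSO, is the most abundant member past 2-fold.

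Most members lay within 2-fold between the libraries on the TPM + 1 scale. With JIB-04, 1 of the 44 described members was at least 2-fold higher, against 5.99% of all described genes, and 5 were at least 2-fold lower, against 6.88% of all described genes. As shares of the members these were 2.27% and 11.4%, and the other 38 members lay within 2-fold. With a pseudocount of 0.1 TPM, CYP2E1 and UGT2B4 were also higher, and GSTO2, SULT1C2, UGT1A1 and UGT2B15 were also lower. Of all described genes, 1160 were then higher and 1436 lower. The median log2 ratio of the members was -0.20, with 28 below 0 and 16 above 0, beside the -0.15 of all described genes. Of all 14450 described genes, 8711 lay below 0 and 5739 above 0. The interval lay below 0 for 24 members, above 0 for 12 and held 0 for 8. Over all described genes these counts were 6691, 4056 and 3703.

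The lower members were CYP24A1, GSTA4, CYP3A7, SULT1E1 and UGT2B10, at least 1 from each family, and the higher one was CYP3A7-CYP3A51P. CYP24A1 and GSTA4 alone among them had a mean TPM of at least 5, and the other 4 were below 3 TPM in both libraries. With TPM scaled so that the median log2 ratio of genes with at least 10 TPM in both libraries was 0, which raised the JIB-04 values by 0.15 on the log2 scale, 3 of 45 described members were higher, against 7.70% of all genes. On this scale 4 members were lower, against 4.67% of all genes. UGT2B4 and CYP4F22 were the added higher ones, and UGT2B10 was no longer called lower.

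The families overlapped in their log2 ratios. These ran from -2.05 to 0.80 in P450 genes, leaving out CYP3A7 and CYP3A7-CYP3A51P, each listed at 0 in 1 library. They ran from -1.06 to 0.92 in UGT genes, -1.39 to 0.48 in SULT genes and -1.50 to 0.33 in GST genes. Differences between families were not tested. The median log2 ratio was 0.13 over 19 described P450 genes, -0.39 over 7 UGT genes, -0.31 over 8 SULT genes and -0.28 over 10 GST genes. Above 0 were 11 of the 19 P450 genes, 1 of the 7 UGT genes, 2 of the 8 SULT genes and 2 of the 10 GST genes. Over all 14450 described genes, 5739 lay above 0. The summed P450 level was 339 TPM with JIB-04 and 624 TPM with DMSO, and CYP24A1 accounted for most of that gap.

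**Figure D2:**
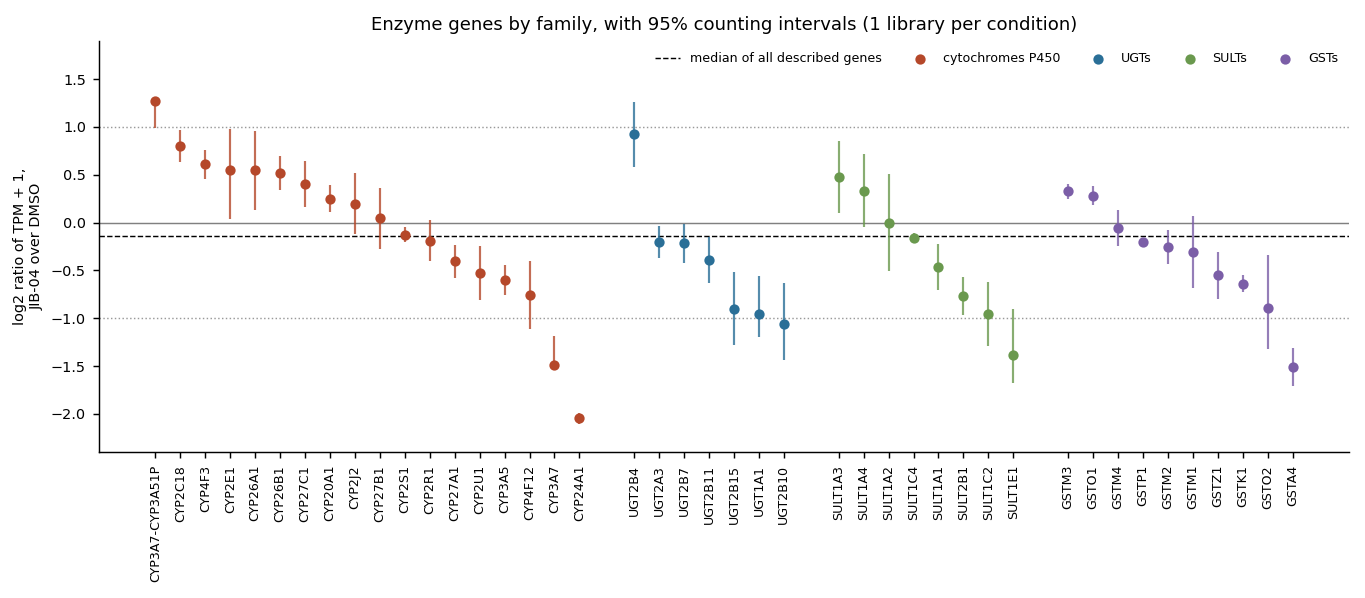
Log2 ratio of TPM + 1, JIB-04 over DMSO, of each of 43 of the 44 described members by family, with 95% counting intervals, dotted lines at 2-fold and a dashed line at the median of all described genes (-0.15). CYP24A1 is lowest at -2.05, and the points of CYP3A7 and CYP3A7-CYP3A51P are set by the pseudocount, since each is listed at 0 in 1 library.

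Of the P450 genes, CYP24A1, which acts on vitamin D, came first in size of difference and in mean level. The other 5 described P450 genes that act on vitamin D and retinoids lay within 2-fold. P450 enzymes share a loop around the cysteine that holds the heme iron, and the coding sequence of that loop is shown for the P450 members on which the results turn, to let their relatedness be seen. The sequences are from GENCODE v29 transcripts of GRCh38, read 5′ to 3′, and capitals mark the codon of the cysteine.
CYP24A1: tttggcgttggaaaaagaatgTGCattggt
CYP2C18: ttctcagcaggaaaacggatgTGTatggga
CYP3A5: tttggaactggacccagaaacTGCattggc
CYP3A7: tttggaagtggacccagaaacTGCattggc
CYP4F3: ttctcagcagggcccaggaacTGCatcggg
CYP2S1: ttctccttagggaagcgtgtcTGCcttgga
Of the 30 bases, 21 were identical to those of CYP24A1 in CYP3A5 and CYP3A7, 19 in CYP2C18, 17 in CYP2S1 and 15 in CYP4F3. The loop was found by its signature in every described P450 gene except CYP20A1.

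CYP24A1, the mitochondrial enzyme that breaks down active vitamin D, was the most abundant P450 gene with DMSO. CYP24A1 (Entrez 1591, hg19 chromosome 20, 52769988 to 52790516, minus strand) had 88.8 TPM with JIB-04 and 370 TPM with DMSO, from an estimated 2838 fragments with JIB-04 and 14230 with DMSO. The log2 ratio was -2.05 (interval -2.10 to -1.99), or 4.13 times lower. It lay at percentile 0.304 of the log2 ratios of all described genes, and its rank by TPM among them was 2097 with JIB-04 and 384 with DMSO. No window of 101 bases in its transcripts was found in a transcript of another gene.

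The lower level of CYP24A1 ran along the whole gene. Each of its 12 annotated exons had less coverage with JIB-04, with log2 ratios of scaled coverage from -2.29 to -1.61. The exon of 1313 bases at its end had 68.2 with JIB-04 and 339 with DMSO. The major transcript (NM_000782) had 82.0 TPM with JIB-04 and 307 TPM with DMSO, and the one that lacks an exon of 198 bases (NM_001128915) had 6.76 TPM with JIB-04 and 62.6 TPM with DMSO.

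The enzymes that make the hormone CYP24A1 destroys differed less. CYP2R1, which carries out the first hydroxylation of vitamin D in liver, had 17.7 TPM with JIB-04 and 20.4 TPM with DMSO, a log2 ratio of -0.19 (interval -0.41 to 0.02). CYP27B1, which forms the active hormone, had 3.96 TPM with JIB-04 and 3.82 TPM with DMSO. VDR, the vitamin D receptor, for which CYP24A1 is a textbook target gene, had 1.40 TPM with JIB-04 and 0.516 TPM with DMSO, and its partner RXRA had 16.4 TPM with JIB-04 and 9.39 TPM with DMSO. None of these 4 genes was past 2-fold on the TPM + 1 scale.

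None of the 4 retinoid P450 genes passed 2-fold. CYP26B1, which breaks down retinoic acid, had 10.4 TPM with JIB-04 and 6.96 TPM with DMSO, a log2 ratio of 0.52 (interval 0.34 to 0.70). CYP26A1, of the same function, had 2.35 TPM with JIB-04 and 1.29 TPM with DMSO, and CYP27C1, which acts on retinol, had 4.06 TPM with JIB-04 and 2.82 TPM with DMSO. CYP26C1, also a retinoic acid hydroxylase, was listed at 0 in both libraries. The coverage of CYP26B1 was higher in 3 of its 6 exons and lower in the other 3.

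Among the P450 genes of drug metabolism, CYP2C18 and CYP3A5 were the most abundant, and both lay within 2-fold. CYP2C18 (Entrez 1562, hg19 chromosome 10, 96443251 to 96495947), a member of the CYP2C drug-metabolizing subfamily, had 26.3 TPM with JIB-04 and 14.6 TPM with DMSO, a log2 ratio of 0.80 (interval 0.64 to 0.97). All 9 of its exons had more coverage with JIB-04, by log2 ratios of 0.24 to 1.14, although 34.4% of its 101-base windows also occurred in transcripts of another GENCODE gene, most often AL583836.1. CYP2E1, which acts on ethanol, had 1.15 TPM with JIB-04 and 0.467 TPM with DMSO from an estimated 19 fragments with JIB-04 and 9 with DMSO. CYP2J2, which makes epoxides of arachidonic acid, had 6.61 TPM with JIB-04 and 5.64 TPM with DMSO, with an interval of the log2 ratio that held 0.

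CYP3A5 was the main CYP3A gene of these cells. It had 26.1 TPM with JIB-04 and 40.0 TPM with DMSO, a log2 ratio of -0.60 (interval -0.75 to -0.44). The difference was not even along the gene, since the first exon had scaled coverage of 21.5 with JIB-04 and 37.4 with DMSO, while the last exon had 11.1 with JIB-04 and 8.66 with DMSO. A short transcript that ends within the gene (NM_001190484) had 7.20 TPM with JIB-04 and 17.3 TPM with DMSO, and a longer one (NM_001291830) had 8.64 TPM with JIB-04 and 6.62 TPM with DMSO.

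The calls at CYP3A7, the main CYP3A gene of fetal liver, depend on which of a pair of overlapping annotations took the reads. CYP3A7 was listed at 0 with JIB-04 and had 1.80 TPM with DMSO, whereas its readthrough CYP3A7-CYP3A51P had 1.41 TPM with JIB-04 and was listed at 0 with DMSO. CYP3A7 shares 77.0% of its exonic bases with the readthrough on the same strand. The exon at the far end that only the readthrough has, of 557 bases, had a scaled coverage of 0.180 with JIB-04, and the other such exon, of 101 bases, was at 0. Summed as 1 gene, they had 1.41 TPM with JIB-04 and 1.80 TPM with DMSO, a log2 ratio of -0.22 (interval -0.63 to 0.21). That sum, chosen after the values were seen, left 0 members higher and 4 lower, and no fold is given for either gene alone.

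The P450 genes of fatty acid, sterol and less settled substrates lay within 2-fold. CYP4F3, which inactivates leukotriene B4, had 24.6 TPM with JIB-04 and 15.8 TPM with DMSO, a log2 ratio of 0.61 (interval 0.46 to 0.76), and 12 of its 13 exons of at least 50 bases had more coverage. CYP4F12, a fatty acid hydroxylase, lay the other way with 3.40 TPM with JIB-04 and 6.45 TPM with DMSO. CYP2U1, a hydroxylase of long-chain fatty acids, had 0.899 TPM with JIB-04 and 1.75 TPM with DMSO.

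CYP27A1, a mitochondrial enzyme of bile acid synthesis, had 18.1 TPM with JIB-04 and 24.4 TPM with DMSO, a log2 ratio of -0.41, and all 9 of its exons were lower. It was the sole described gene among 12 of sterol, bile acid and steroid hormone metabolism. CYP2S1, the most abundant P450 gene with JIB-04, had 91.8 TPM with JIB-04 and 100.3 TPM with DMSO, a log2 ratio of -0.13 that turned to 0.02 with the median scaling. CYP20A1, whose substrate is not settled, had 5.07 TPM with JIB-04 and 4.11 TPM with DMSO.

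The transcripts of CYP4F3 differed more than the gene, but its exons did not follow them. The transcript NM_000896 took 70.5% of the gene's TPM with JIB-04 and 17.9% with DMSO. The exon that this transcript has on its own had a scaled coverage of 1.18 with JIB-04 and 1.302 with DMSO, and the alternative exon, also of 145 bases, had 5.21 with JIB-04 and 3.11 with DMSO. The transcript values of this gene are therefore not described further.

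**Figure D3:**
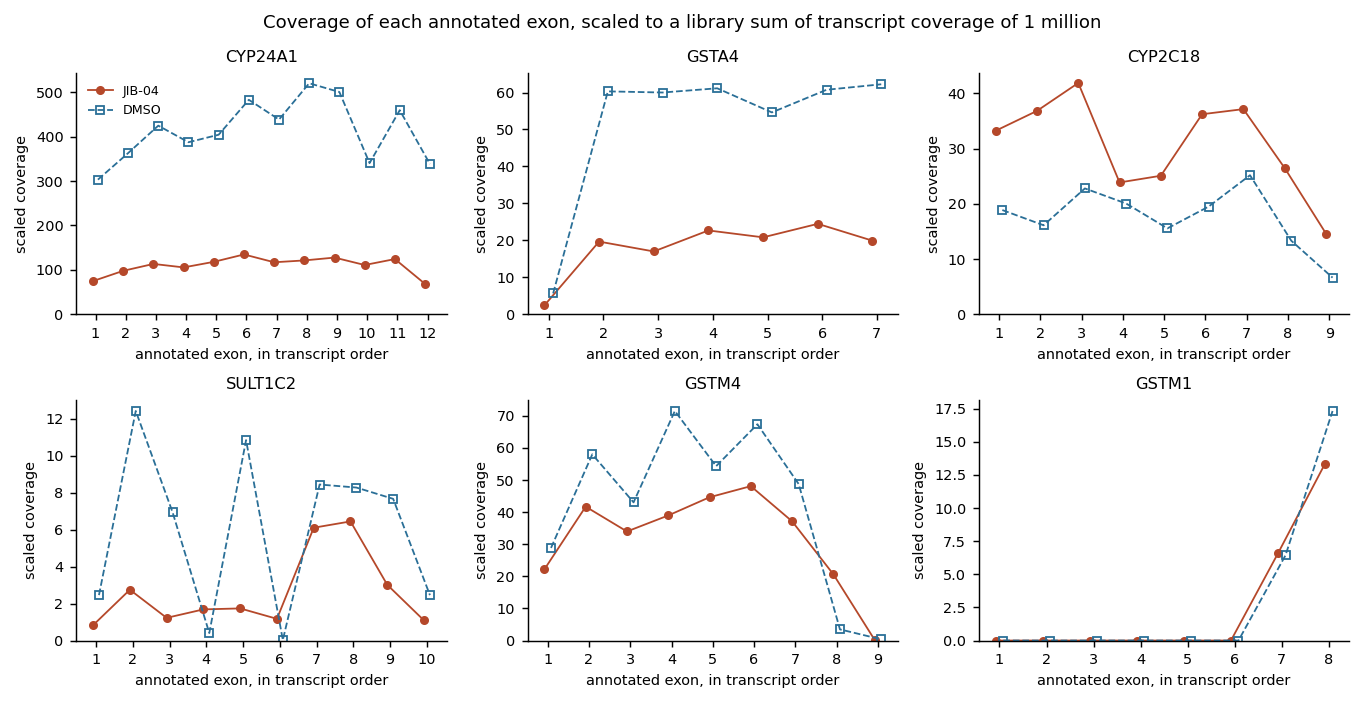
Scaled coverage of each annotated exon (in transcript order, alternative exons included) of 6 members with JIB-04 (filled) and DMSO (open). CYP24A1 and GSTA4 are lower and CYP2C18 is higher with JIB-04 in every exon, the SULT1C2 gap is widest before exon 7, GSTM4 is higher at exon 8 alone, and GSTM1 is at 0 in its first 6 exons in both libraries.

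The GST genes were the most abundant family. GSTP1, the placental-type transferase that many tumours express, had 4143 TPM with JIB-04 and 4773 TPM with DMSO, a log2 ratio of -0.20 (interval -0.22 to -0.19), close to the median of all genes. It ranked 11 with JIB-04 and 8 with DMSO by TPM among described genes. GSTK1, of mitochondria and peroxisomes, had 144 TPM with JIB-04 and 226 TPM with DMSO, a log2 ratio of -0.64 (interval -0.73 to -0.55) with all 8 exons of at least 50 bases lower. GSTZ1, which acts in tyrosine breakdown, had 14.6 TPM with JIB-04 and 21.9 TPM with DMSO, a log2 ratio of -0.55.

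GSTA4, which conjugates the lipid peroxidation product hydroxynonenal, was the lowest of the GST genes. GSTA4 (Entrez 2941, hg19 chromosome 6, 52842746 to 52860178, minus strand) had 18.9 TPM with JIB-04 and 55.4 TPM with DMSO, a log2 ratio of -1.50 (interval -1.70 to -1.31), or 2.84 times lower. All 7 exons had less coverage, by log2 ratios of -1.76 to -0.97, and none of its 101-base windows was found in a transcript of another gene. It was the sole described member of the GSTA genes, of which GSTA1, GSTA2 and GSTA5 were listed at 0 in both libraries and GSTA3 had 0.285 TPM with JIB-04 and 0.736 TPM with DMSO.

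The omega and mu classes lay closer to 0. GSTO1, which reduces disulfides and methylated arsenic, had 177 TPM with JIB-04 and 146 TPM with DMSO, a log2 ratio of 0.28, while its neighbour GSTO2 had 0.454 TPM with JIB-04 and 1.70 TPM with DMSO from an estimated 7 fragments with JIB-04 and 25 with DMSO. An exon of 253 bases at the start of GSTO1 had a scaled coverage of 34.7 with JIB-04 and 3.37 with DMSO, whereas the exons after it differed by log2 ratios of at most 0.33. GSTM3, a mu-class gene on the opposite strand from its relatives, had 60.4 TPM with JIB-04 and 48.0 TPM with DMSO, a log2 ratio of 0.33 (interval 0.24 to 0.41).

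The other mu-class genes stand next to each other on chromosome 1 and share sequence, which makes their single values uncertain. GSTM2 had 35.3 TPM with JIB-04 and 42.2 TPM with DMSO, GSTM4 had 28.8 TPM with JIB-04 and 30.0 TPM with DMSO, and GSTM1 had 6.70 TPM with JIB-04 and 8.50 TPM with DMSO. GSTM1 had no coverage in its first 6 exons in either library, and its coverage lay in the last 2 of its 8 exons. Of the 101-base windows of GSTM1 transcripts, 28.9% were found in another gene, most often GSTM2.

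The exons of GSTM4 lay on both sides of 0. Its first 7 exons were lower with JIB-04, by log2 ratios of -0.86 to -0.28, while the exon of 545 bases after them had a scaled coverage of 20.6 with JIB-04 and 3.47 with DMSO. Of its 9 exons, 8 were lower and this 1 was higher. The log2 ratio of the whole gene, -0.06 (interval -0.24 to 0.13), thus joins 8 lower exons and 1 higher exon. Summed, GSTM1, GSTM2 and GSTM4 had 70.8 TPM with JIB-04 and 80.7 TPM with DMSO, a log2 ratio of -0.19 (interval -0.31 to -0.06).

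The sulfotransferases were led by SULT1C4, a fetal-type enzyme, with 189 TPM with JIB-04 and 212 TPM with DMSO and a log2 ratio of -0.16. SULT2B1, which sulfates cholesterol, had 24.7 TPM with JIB-04 and 42.7 TPM with DMSO, a log2 ratio of -0.77 (interval -0.96 to -0.57), and all 8 of its exons were lower. SULT1A1, the main phenol sulfotransferase of liver, had 16.7 TPM with JIB-04 and 23.3 TPM with DMSO, a log2 ratio of -0.46 (interval -0.70 to -0.22). Each of these had less TPM with JIB-04.

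SULT1E1, the estrogen sulfotransferase, was called lower from few reads. It had 0.257 TPM with JIB-04 and 2.29 TPM with DMSO, from an estimated 4 fragments with JIB-04 and 49 with DMSO, a log2 ratio of -1.39 (interval -1.68 to -0.90). SULT1C2 had 1.77 TPM with JIB-04 and 4.39 TPM with DMSO, a log2 ratio of -0.96, with the gap concentrated in its upstream exons. Its transcript NM_001056 had 0.365 TPM with JIB-04 and 4.35 TPM with DMSO, and NM_176825, with an alternative exon of 95 bases, had 1.40 TPM with JIB-04 and 0.0357 TPM with DMSO.

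SULT1A3 and SULT1A4, which sulfate dopamine and other catecholamines, cannot be separated. The files annotate both symbols at both of their copies on chromosome 16, so that 100% of the exonic bases of each were shared. SULT1A3 had 7.21 TPM with JIB-04 and 4.90 TPM with DMSO, and SULT1A4 had 6.61 TPM with JIB-04 and 5.03 TPM with DMSO. Summed, they had 13.8 TPM with JIB-04 and 9.93 TPM with DMSO, a log2 ratio of 0.44 (interval 0.15 to 0.72), and SULT1A2, another phenol sulfotransferase, had 2.94 TPM with JIB-04 and 2.95 TPM with DMSO.

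The promoters of GSTA4 and SULT1E1 are shown because these were the lower members outside the P450 and UGT families. Each sequence is the 250 bases before the gene's annotated start in RefSeq on GRCh38.p14, read 5′ to 3′ on the gene's strand, GSTA4 at chr6:52995285-52995534 and SULT1E1 at chr4:69860146-69860395. Capitals mark CAAT and TATA boxes only, namely a CAAT box on the other strand in GSTA4 and a TATA box in SULT1E1. The GSTA4 sequence also holds the half-site and antioxidant response element letters described below, which are not marked.
GSTA4: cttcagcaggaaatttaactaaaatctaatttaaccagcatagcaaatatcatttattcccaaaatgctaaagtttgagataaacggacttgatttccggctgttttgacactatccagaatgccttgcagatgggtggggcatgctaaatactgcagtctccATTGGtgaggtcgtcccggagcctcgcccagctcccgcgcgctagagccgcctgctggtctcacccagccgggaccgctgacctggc
SULT1E1: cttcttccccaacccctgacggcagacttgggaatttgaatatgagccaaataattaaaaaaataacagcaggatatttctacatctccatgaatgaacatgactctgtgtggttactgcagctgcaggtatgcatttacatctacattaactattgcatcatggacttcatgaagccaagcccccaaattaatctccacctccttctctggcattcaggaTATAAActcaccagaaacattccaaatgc
The letters TATAAA and CCAAT were searched on both strands of these 250 bases in all 35116 promoters of the RefSeq table, which held 42 promoters of 36 described members. TATAAA was found in 11 of 42 promoters of described members (26.2%) and in 10.7% of all promoters, and CCAAT in 14 (33.3%) and in 32.0%. The nuclear receptor half-site AGGTCA was found in 11 of the 42 (26.2%) and in 12.1% of all promoters. The antioxidant response element core TGACNNNGC was found in 7 of the 42 (16.7%) and in 10.9% of all promoters, and its first letters can overlap a half-site read on the other strand. ACGTG, the core letters of a hypoxia response element, was found in 6 of the 42 (14.3%) and in 18.5% of all promoters, and GCGTG, those of a dioxin response element, in 8 (19.0%) and in 32.2%. CYP3A7 and its readthrough start at the same base, and with each start site counted once TATAAA and AGGTCA were each found in 10 of 41 (24.4%), beside 10.8% and 12.1% of all start sites. These matches are letters in a window and were not tested.

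The UGT genes were represented by the UGT2 group. UGT2B7, which glucuronidates morphine, had 19.0 TPM with JIB-04 and 22.2 TPM with DMSO, UGT2A3, which acts on bile acids, had 15.2 TPM with JIB-04 and 17.7 TPM with DMSO, and UGT2B11 had 11.3 TPM with JIB-04 and 15.1 TPM with DMSO. Their log2 ratios were -0.22, -0.20 and -0.39, and all 3 intervals lay below 0. UGT2B15, which conjugates androgens, had 1.55 TPM with JIB-04 and 3.77 TPM with DMSO, a log2 ratio of -0.91.

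UGT2B4, which acts on bile acids, was the sole UGT gene above 0. It had 6.51 TPM with JIB-04 and 2.96 TPM with DMSO, a log2 ratio of 0.92 (interval 0.58 to 1.26), and its 6 exons with coverage were all higher. Without the pseudocount its TPM with JIB-04 was 2.199 times that with DMSO, so its place within 2-fold rests on the pseudocount. UGT2B10, which glucuronidates nicotine, had 0.839 TPM with JIB-04 and 2.83 TPM with DMSO, a log2 ratio of -1.06 (interval -1.44 to -0.63) from an estimated 17 fragments with JIB-04 and 78 with DMSO. Its transcript is annotated at a second place of chromosome 4 as well, which held 73.8% of its TPM with JIB-04 and 49.6% with DMSO.

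UGT1A1, the enzyme that clears bilirubin, had 0.210 TPM with JIB-04 and 1.34 TPM with DMSO, from an estimated 5 fragments with JIB-04 and 38 with DMSO. Its log2 ratio was -0.95 (interval -1.20 to -0.55), and it was not called lower. Without the pseudocount its TPM with JIB-04 was 0.157 times that with DMSO, so its place within 2-fold rests on the pseudocount. All 5 of its exons were lower, including the first exon, which no other UGT1A gene uses, at a scaled coverage of 0.231 with JIB-04 and 1.56 with DMSO. UGT2B17, an androgen-conjugating relative of UGT2B15 that stayed below the filter, had 0.358 TPM with JIB-04 and 0.990 TPM with DMSO. UGT2B28 and UGT1A9 also stayed below it.

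**Figure D4:**
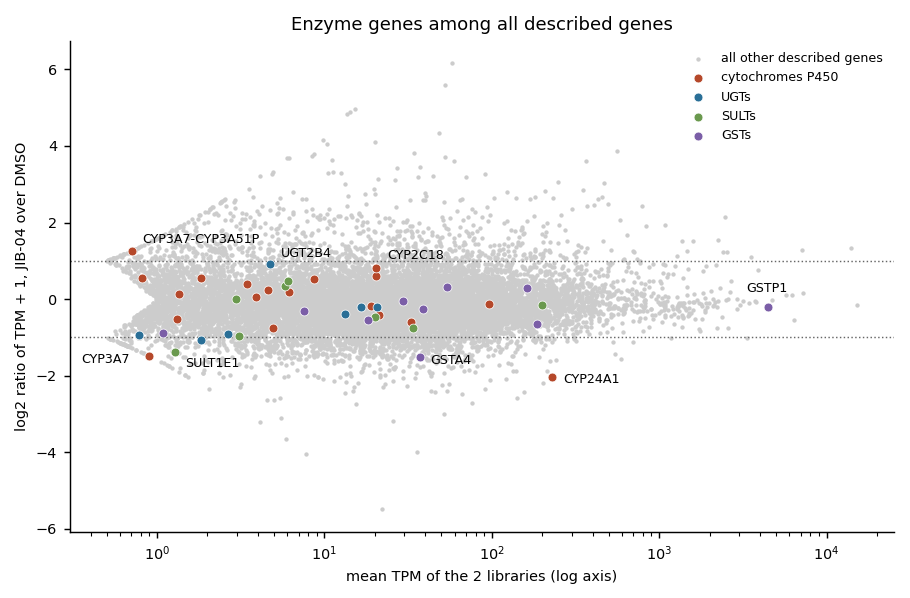
Log2 ratio of TPM + 1, JIB-04 over DMSO, against mean TPM (log axis) of all described genes (grey) and the 44 members by family, with dotted lines at 2-fold. CYP24A1 (-2.05) and GSTA4 (-1.50) are the members past 2-fold at a mean TPM of at least 5, and the other 4 members past 2-fold lie at the low end of expression.

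The enzymes that supply the members with electrons and cofactors are known to limit their activity. A list of 11 genes held P450 electron donors and also ALAS1, of heme synthesis, and the heme-binding PGRMC1 and PGRMC2. All 11 were described, 0 were higher and 1 was lower, beside 5.99% and 6.88% of all described genes. Their median log2 ratio was -0.10. POR, the reductase that feeds the P450 enzymes of the endoplasmic reticulum, had 117 TPM with JIB-04 and 126 TPM with DMSO. CYB5B, the cytochrome b5 of the outer mitochondrial membrane, was lower at 116 TPM with JIB-04 and 287 TPM with DMSO, a log2 ratio of -1.29.

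Neither FDX1 nor FDXR, of the mitochondrial chain that serves CYP24A1, CYP27A1 and CYP27B1, passed 2-fold. FDX1, the ferredoxin of that chain, had 15.6 TPM with JIB-04 and 30.7 TPM with DMSO, a log2 ratio of -0.93 (interval -1.08 to -0.79). FDXR, the reductase before it, had 8.04 TPM with JIB-04 and 15.9 TPM with DMSO, a log2 ratio of -0.90 (interval -1.16 to -0.65). FDX2, a mitochondrial ferredoxin not counted in that chain, had 36.1 TPM with JIB-04 and 44.6 TPM with DMSO, a log2 ratio of -0.30. CYB5R3 and PGRMC2 had the highest ratios of the list, 0.37 and 0.47.

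Of 17 genes of cofactor supply, 1 was higher and 0 were lower, beside 5.99% and 6.88% of all described genes. Their median log2 ratio was -0.12. GCLC, the catalytic subunit of the rate-limiting enzyme of glutathione synthesis, had 111 TPM with JIB-04 and 32.7 TPM with DMSO, a log2 ratio of 1.73 (interval 1.65 to 1.82). Its partner subunit GCLM had 71.3 TPM with JIB-04 and 49.1 TPM with DMSO, a log2 ratio of 0.53, and GSS, the next enzyme of the path, lay below 0 with 108 TPM with JIB-04 and 155 TPM with DMSO. The sulfation genes of this list lay on both sides of 0. PAPSS2, which makes the sulfate donor, had 98.2 TPM with JIB-04 and 65.2 TPM with DMSO. BPNT2, which removes the spent form of that donor, stood at 0.90 on the log2 scale. Their relatives BPNT1 and PAPSS1 went the other way, at -0.48 and -0.12, and only PAPSS1 had an interval that held 0. BPNT1 had 32.2 TPM with JIB-04 and 45.2 TPM with DMSO. For glucuronidation, UGDH had 112 TPM with JIB-04 and 115 TPM with DMSO. SLC35B1 had the lowest ratio of this list, -0.67.

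Other enzymes of drug metabolism were counted in the same way. Of 53 other phase I enzymes, which oxidize, reduce or hydrolyse, 35 were described, with a median log2 ratio of -0.19. Of the 35, 1 was higher and 4 were lower, beside 5.99% and 6.88% of all described genes. ALDH1A1, a retinal dehydrogenase, had 302 TPM with JIB-04 and 889 TPM with DMSO, a log2 ratio of -1.56, and MAOA, a monoamine oxidase, one of -1.01. CDA, the cytidine deaminase, was higher at 50.8 TPM with JIB-04 and 18.3 TPM with DMSO. The weakly expressed AOX1 and CBR3 came next, with log2 ratios of 0.90 and 0.73, and then AKR1C2 with 0.35. AKR1C4, listed at 0 with JIB-04 and at 1.32 TPM with DMSO, and ADH6, at 0.218 TPM with JIB-04 and 2.93 TPM with DMSO, were the other lower ones.

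Of 23 other phase II enzymes, 14 were described, 0 were higher and 1 was lower, beside 5.99% and 6.88% of all described genes. Their median log2 ratio was -0.40. AS3MT, which methylates arsenic, had 20.5 TPM with JIB-04 and 56.3 TPM with DMSO, a log2 ratio of -1.42, and the membrane-bound transferase MGST1 had 174 TPM with JIB-04 and 321 TPM with DMSO, a log2 ratio of -0.88. PTGES, the prostaglandin E synthase of the same superfamily as MGST1, had a log2 ratio of 0.84, and MGST3 one of 0.06. Of 27 drug transporters, 15 were described, 2 were higher and 1 was lower, beside the same 5.99% and 6.88%. ABCC1, which exports glutathione conjugates, had 100.2 TPM with JIB-04 and 43.8 TPM with DMSO, a log2 ratio of 1.18, and the uptake carrier SLCO1B3 one of 1.08. SLCO2B1 had 3.60 TPM with JIB-04 and 19.1 TPM with DMSO, a log2 ratio of -2.13, and ABCC6 a log2 ratio of -0.93.

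Of 29 receptors and liver transcription factors that control such genes, 23 were described, with a median log2 ratio of 0.11. Of the 23, 2 were higher and 3 were lower, beside 5.99% and 6.88% of all described genes. NR1I2 (PXR), a main drug sensor of the liver, had 0.0804 TPM with JIB-04 and 0.0654 TPM with DMSO, and NR1I3 (CAR) was listed at 0 in both. AHR, the dioxin receptor, had 84.7 TPM with JIB-04 and 58.2 TPM with DMSO, and NFE2L2 (NRF2), the regulator of antioxidant genes, had 258 TPM with JIB-04 and 218 TPM with DMSO. CEBPB, a transcription factor of hepatocytes and of the acute phase, had 10.9 TPM with JIB-04 and 93.3 TPM with DMSO, a log2 ratio of -2.99, and FOXA1 (-1.55) and FOXA3 (-1.39) were the other lower factors. FOXA2 was higher at 42.7 TPM with JIB-04 and 13.0 TPM with DMSO, a log2 ratio of 1.65, and RORA was higher at 3.98 TPM with JIB-04 and 0.0229 TPM with DMSO.

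**Figure D5:**
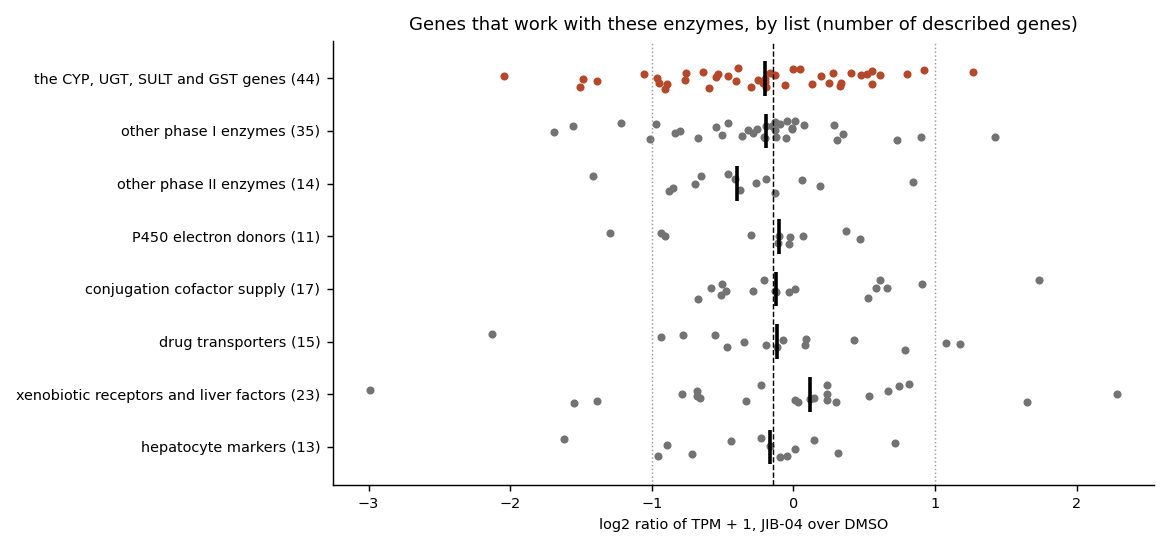
Log2 ratio of TPM + 1, JIB-04 over DMSO, of the described members (top row) and of the described genes of 7 related lists, 1 point per gene, with the median of each as a black bar, dotted lines at 2-fold and a dashed line at the median of all described genes (-0.15). The medians lie between -0.40 (other phase II enzymes) and 0.11 (receptors and liver factors), and the spread within each list is wider than the gaps between medians. The row named P450 electron donors also holds ALAS1, PGRMC1 and PGRMC2.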

How the data were processed

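PLC/PRF/5 cells were profiled with 1 RNA sequencing library for JIB-04 and 1 for DMSO. Per the labels, libraries were made with a stranded mRNA kit, and build hg19 (GRCh37), StringTie 1.3.3b, HISAT2 2.0.5, Trimmomatic 0.32, Bowtie2 2.2.6 and FastQC 0.11.5 are named in the submitters' processing notes. The values that the authors deposited are, for every annotated RefSeq transcript, per-base coverage, FPKM and TPM, which StringTie estimated with a strand setting and without assembling new transcripts. Reads that fit several transcripts or paralogs were divided by that tool, which can shift single genes and transcripts.

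TPM was joined by transcript ID, summed per Entrez gene and given symbols from a RefSeq table (27559 of 27685 genes). TPM is a share, so it carries no absolute amount of RNA. Fragments were estimated by dividing aligned bases by 202, the size of 2 mates of 101 bases, and genes with more fragments have narrower intervals. Of weakly covered genes of 1 transcript, 29.5% with JIB-04 and 30.3% with DMSO lay within 2 bases of a multiple of 202. Fragment counts and intervals are therefore approximate. Exon coverage was divided by the library's summed transcript coverage and multiplied by 1000000, and exons under 50 bases were left out of exon counts. Shared windows, heme loops and promoters came from GENCODE v29 and RefSeq, on GRCh38, with no conversion of coordinates. Named members are those past 2-fold or with a mean TPM of at least 5, and other members where a family needed them. Of each list, the 2 highest and 2 lowest genes of that mean level were named, and others in the text were chosen after their values were seen. The values of 3 genes are not reported here. Members and lists were chosen with earlier results of these data known. The alternatives changed the pseudocount, filter, unit, scaling, threshold and gene set. Ratio and interval functions were tested on simulated data. Python 3.11.15, numpy 2.4.6, pandas 2.3.3, SciPy 1.17.1 and matplotlib 3.10.9 were used.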

Additional observations from a re-analysis of the deposited data

How the results depend on the processing

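CYP24A1 was called lower under all 12 alternatives of the pseudocount, filter, unit, scaling, transcript choice, threshold and gene set, and GSTA4 under all of them except the threshold of 3-fold. The count of lower members, 5, became 9 with a pseudocount of 0.1 TPM, 2 with a pseudocount of 5 TPM, 2 with a filter of 5 TPM, 2 with FPKM, 13 at a threshold of 1.5-fold and 1 at 3-fold. The count of higher members was 1 of 44, beside 865 of 14450 described genes. It became 3 with a pseudocount of 0.1 TPM (1160 of all described genes) and 0 with one of 5 TPM (439). A filter of 5 TPM gave 0 of 29 (646 of 11775) and FPKM gave 0 of 35 (583 of 13016). The median scaling gave 3 of 45 (1119 of 14541) and the most abundant transcript 2 of 44 (1082 of 14330). The count was 4 at 1.5-fold (1853) and 0 at 3-fold (318). It was 0 without members that share over 50% of their exonic bases (864). It was also 0 with CYP3A7 and its readthrough summed and 0 with the 3 sets of sequence-sharing genes summed, both chosen after seeing the data. The members' median log2 ratio ranged from -0.25 to -0.05, and that of all described genes from -0.16 to -0.0012. For 30 named members and 8 alternatives, 229 of 233 log2 ratios kept their sign, and the 4 that did not were of CYP2S1, GSTM4 and UGT2A3, none past 2-fold. No paired analysis was possible because there is 1 library per condition. For the same reason no replicate could be left out, and differences between cultures and library preparations cannot be told apart from the treatment.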
